A study of Rattus norvegicus with 59 samples.

Results

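The chromium-series control livers are 15 of the 59 rat livers measured in the study, and they were chosen by their labels alone: 5 livers of Cr Control Day 1, 5 of Cr Control Day 3 and 5 of Cr Control Day 7. No exposed liver is among them. The rats were male Sprague-Dawley animals, all of which received an injection of sterile saline into the peritoneum and no metal, and their livers were taken 1, 3 or 7 days later. Ages are not given in the sources used here. Total RNA of whole liver was hybridised to an Affymetrix whole-genome expression array for rat, with 1 array per liver, and the study pooled the 3 days as a common control for livers exposed to chromium. The labels separate the 3 groups by day only. The hour of collection and the day on which arrays were processed are not given in the sources used here, so they cannot be told apart from the day after injection.

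Values are log2 signals, on which a difference of 1 is a doubling of signal. Differences are given as day 1 minus the mean of days 3 and 7 unless another pair of days is named. The 15521 brighter of the 31042 probe sets were tested with limma, and those with an adjusted p of 0.05 or less by the method of Benjamini and Hochberg are referred to as called. Where several probe sets carry the symbol of a gene and no other, the brightest was read.

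Hepatocytes of an adult liver are almost all outside the cell cycle, and they return to it after loss of tissue or in response to growth signals. A cell that divides copies its DNA in S phase with the help of replication and nucleotide-supply enzymes. It then enters mitosis under cyclin B and the kinase Cdk1, separates its chromosomes with spindle motors and the anaphase-promoting complex, and splits by cytokinesis. The transcripts of mitotic genes are held low in resting cells and are made mainly in late S phase and G2, so in whole tissue they are used as a measure of dividing cells. In a whole-liver extract, more dividing cells and more mitotic RNA per dividing cell cannot be told apart.

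The 15 arrays were alike in their general measures. The median log2 signal of an array lay between 5.41 and 5.46, the mean correlation of an array with the others of its group was at least 0.985, and 0 pairs of arrays held identical values. The mean log2 signal of the hepatocyte markers, among them albumin, lay between 13.72 and 13.82 in all 15 livers. Of the 9 markers tested 0 was called, against 1.53% of all probe sets tested. The 3′ minus 5′ log2 signal of the beta-actin control probe sets, which is larger where RNA is shorter or less fully copied, was higher on day 1. It was 2.13, 2.32, 2.46, 1.92 and 1.98 in day 1 livers, against 1.69 to 2.07 on day 3 and 1.86 to 2.18 on day 7. Day 1 averaged 2.16 ± 0.23 (SD, n = 5) and the later days 1.89 ± 0.14 (SD, n = 10), with a two-sided exact permutation p of 0.0206 and an adjusted p of 0.0824 over the 4 such tests made. The values of 3 day 1 livers lay within the range of the later days.

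The promoters of 4 of the mitotic genes with the largest differences between the days are shown here, since all called members of their list were higher on day 1. They are RefSeq sequences of build GRCr8, from 250 bases before to 50 bases after the annotated start, read along the gene. Mki67 lies at chr1:199952544-199952843 (minus strand), Ccnb2 at chr8:79981609-79981908 (minus strand), Ccnb1 at chr2:33655176-33655475 (minus strand) and Cdk1 at chr20:19265043-19265342 (plus strand). Capitals mark the letters TTTGAA, the cell cycle genes homology region (CHR), and CCAAT, the CCAAT box, on either strand.
Mki67: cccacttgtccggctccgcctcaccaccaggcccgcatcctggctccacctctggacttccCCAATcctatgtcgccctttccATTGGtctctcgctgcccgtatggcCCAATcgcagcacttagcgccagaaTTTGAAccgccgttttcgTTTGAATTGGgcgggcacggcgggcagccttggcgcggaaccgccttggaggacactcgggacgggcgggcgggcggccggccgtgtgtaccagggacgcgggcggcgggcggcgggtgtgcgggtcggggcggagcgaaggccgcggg
Ccnb2: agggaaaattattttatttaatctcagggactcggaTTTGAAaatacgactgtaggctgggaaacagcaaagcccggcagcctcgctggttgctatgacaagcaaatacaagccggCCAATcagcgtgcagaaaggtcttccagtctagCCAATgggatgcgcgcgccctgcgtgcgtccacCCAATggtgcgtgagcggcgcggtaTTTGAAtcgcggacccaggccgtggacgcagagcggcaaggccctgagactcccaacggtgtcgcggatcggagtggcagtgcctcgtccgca
Ccnb1: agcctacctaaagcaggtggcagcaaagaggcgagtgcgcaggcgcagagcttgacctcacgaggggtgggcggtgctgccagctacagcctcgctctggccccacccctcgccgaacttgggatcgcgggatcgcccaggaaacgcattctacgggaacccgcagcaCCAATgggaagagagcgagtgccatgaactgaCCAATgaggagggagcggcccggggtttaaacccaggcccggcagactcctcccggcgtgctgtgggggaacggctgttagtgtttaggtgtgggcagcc
Cdk1: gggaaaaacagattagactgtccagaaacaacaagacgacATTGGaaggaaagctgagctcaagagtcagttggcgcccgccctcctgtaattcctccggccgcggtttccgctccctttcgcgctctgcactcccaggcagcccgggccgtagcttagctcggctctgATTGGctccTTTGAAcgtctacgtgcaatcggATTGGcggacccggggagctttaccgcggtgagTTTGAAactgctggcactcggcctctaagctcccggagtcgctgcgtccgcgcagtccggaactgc
The promoters of Mki67, Ccnb2 and Cdk1 held both words, and that of Ccnb1 held CCAAT but not TTTGAA. Of the 26 called mitotic genes described below, 21 had a promoter entry. TTTGAA was present in 15 of these 21 promoters (71.4%) and in 18.3% of all 33469 promoters, on either strand. CCAAT was present in 17 of them (81.0%) and in 37.5% of all, and the matches can overlap, as they do in Mki67. Both words together were found in 14 (66.7%) and in 7.41% of all. The E-box CACGTG, the D-box TTATGTAA, the cyclic AMP response element TGACGTCA and the core of the interferon-stimulated response element were present in 0 of the 21, against 6.42%, 0.893%, 1.83% and 3.92% of all. The heat shock element GAANNTTC was present in 1 of the 21 (4.76%) and in 8.59% of all. These are matches of letters and not measured binding sites, and the searches for TTTGAA and CCAAT were chosen after the mitotic genes were seen.

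Genes of mitosis were higher on day 1 than on the later days, and this was the main difference among the control livers. Of the probe sets tested, 237 (1.53%) were called, 176 higher on day 1 (1.13%) and 61 lower (0.393%), and 68 (0.438%) differed by at least 1.8-fold as well. The median difference of all 15521 was 0.007. Of the 38 genes written in the list of G2/M and mitosis, 33 had a probe set, 27 of these were bright enough to be tested, and 26 were called higher on day 1 and 0 lower. The members named below include several chosen after their values were seen, beside those with the largest differences. The median of the 27 was 1.44, and in 24 of them all 5 day 1 livers lay above all 10 later livers, which 0.786% of all probe sets tested did. There were 141 calls without day 1 liver 3 and 438 without day 1 liver 5, and the mitotic count was 25 or 26 whichever liver was left out.

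**Figure D1:**
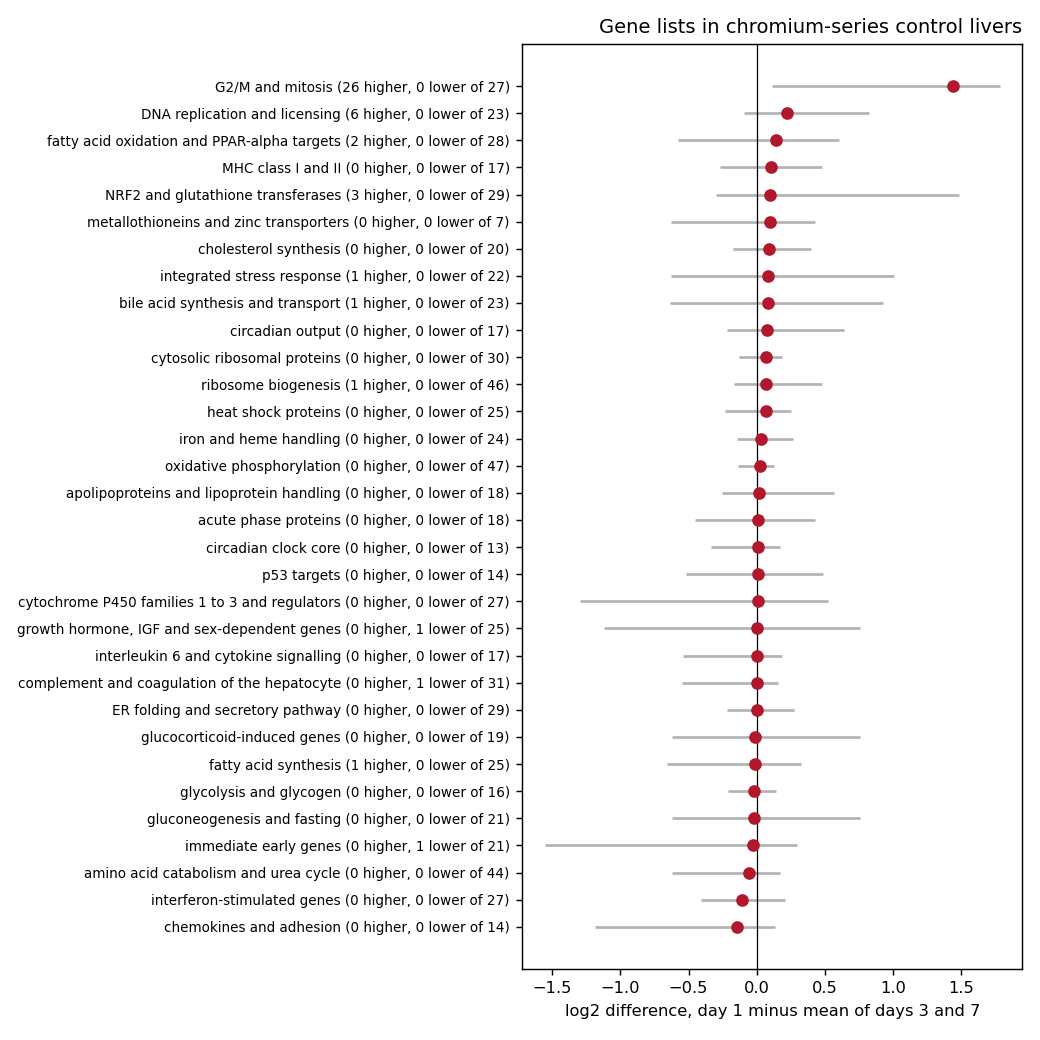
Median log2 difference (points) and the range over tested members (lines) of 32 gene lists, day 1 minus the mean of days 3 and 7 in the 15 chromium-series control livers, with the number of members called in brackets. The G2/M list stands at 1.44 with 26 of 27 members called higher, and DNA replication follows at 0.22.

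The beta-actin measure moved with this result. With it as a covariate, a setting added after the data were seen, 44 probe sets were called in place of 237 and 8 mitotic genes in place of 26. The median of the 27 mitotic genes was then 1.43, against 1.44 without the covariate, and 26 had an unadjusted p of 0.05 or less in both fits, against 7.71% of all probe sets for higher values without the covariate. The 3 day 1 livers whose beta-actin value lay within the later range had mean mitotic signals of at least 7.64, with the highest later liver at 7.19. The beta-actin measure differed with day in these livers, and its part in the result was not tested.

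The proliferation antigen gene Mki67, on chromosome 1, had the largest difference of the list. Its log2 signals were 7.97, 8.33, 8.51, 8.23 and 8.08 on day 1, 6.73, 7.36, 6.86, 6.56 and 7.38 on day 3, and 5.91, 6.50, 5.65, 4.42 and 7.05 on day 7. All day 1 livers were above all later livers, and day 7 held both the lowest value and a liver within the day 3 range. The difference was 1.78 (SE 0.30, limma adjusted p = 0.00479), a 3.44-fold higher signal. Day 7 liver 4 lay below 5.43, the lowest mean signal among the probe sets tested, so the fold is approximate. That liver was below 5.43 for Cdk1, Ccna2, Cdkn3 and Cdc20 as well, among others.

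Cyclins and the kinase they activate were higher on day 1 in 5 of the 6 members tested, with a median of 1.69. Ccnb2, which encodes cyclin B2, had 8.74, 9.09, 9.21, 8.79 and 9.22 on day 1, 7.88, 8.40, 7.77, 7.82 and 8.36 on day 3, and 6.58, 6.83, 6.17, 5.64 and 7.60 on day 7. The groups of day 1 and day 7 were separate by more than a log2 unit, and the difference from both later days was 1.71 (SE 0.23, limma adjusted p = 0.00122). Its partner kinase Cdk1 had 9.02, 8.74, 9.10, 8.67 and 8.76 on day 1, 7.60, 8.36, 7.45, 7.49 and 8.23 on day 3, and 6.76, 7.17, 6.16, 4.91 and 7.61 on day 7. The difference for Cdk1 was 1.69 (SE 0.32, limma adjusted p = 0.0115). Ccna2, cyclin A2 of S phase and G2, differed by 1.70, Ccnb1, cyclin B1, by 1.58, and Cdkn3, a phosphatase that acts on Cdk proteins, by 1.73. A dimmer probe set of Ccnb1 was also called, with a difference of 1.69.

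Ccnd1, which encodes cyclin D1, the cyclin of G1, was the member that was not called. Its log2 signals were 8.28, 8.81, 8.85, 8.87 and 8.78 on day 1, 8.34, 8.34, 8.55, 9.39 and 8.74 on day 3, and 7.82, 9.01, 8.19, 9.37 and 8.27 on day 7. The groups overlapped throughout, and the difference was 0.12 (SE 0.23, limma adjusted p = 0.858). Ccne1, cyclin E1 of the step from G1 to S, was on the array but too dim to be tested, with means of 5.44, 5.35 and 5.23 on days 1, 3 and 7.

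**Figure D2:**
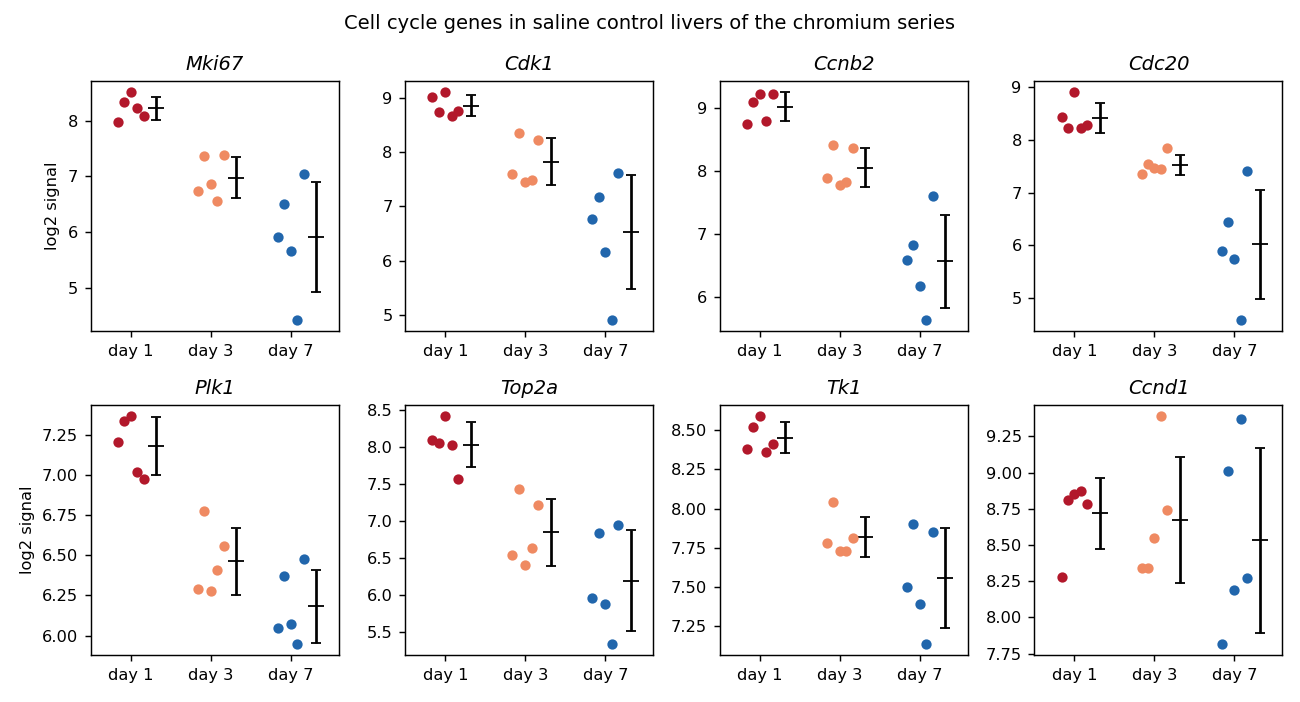
Log2 signal of 8 cell cycle genes in each chromium-series control liver (points), with the mean and SD of the 5 livers of a day (black marks). Day 1 livers lie above all later livers for every gene except Ccnd1, and day 7 has the widest spread for Mki67, Cdk1, Ccnb2 and Cdc20.

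The anaphase-promoting complex marks mitotic proteins for destruction, and both tested members that serve it were higher on day 1. Cdc20, its activator, had 8.44, 8.23, 8.90, 8.23 and 8.28 on day 1, 7.36, 7.54, 7.46, 7.44 and 7.84 on day 3, and 5.90, 6.45, 5.75, 4.59 and 7.41 on day 7. All day 1 values were above 8 and all later values were below it, with a difference of 1.64 (SE 0.30, limma adjusted p = 0.00956). A dimmer probe set of Cdc20 was also called, with a difference of 1.05. Ube2c, the ubiquitin-conjugating enzyme of the complex, differed by 1.62 (SE 0.27, limma adjusted p = 0.00408), with day 1 livers between 8.01 and 8.65 and later livers between 4.99 and 7.47.

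Mitotic kinases and genes of the spindle checkpoint were called higher in all 7 members tested, with smaller differences (median 1.12). Plk1, polo-like kinase 1, had 7.21, 7.34, 7.37, 7.02 and 6.98 on day 1, 6.29, 6.78, 6.28, 6.41 and 6.56 on day 3, and 6.05, 6.37, 6.07, 5.95 and 6.48 on day 7. Its groups were close together within a day, and the difference of 0.86 (SE 0.11) had a limma adjusted p of 0.000642, the smallest reached in this comparison. Birc5, survivin of the chromosomal passenger complex, had the same adjusted p with a difference of 0.75 (SE 0.09). The aurora kinases Aurka and Aurkb differed by 1.36 and 1.31, the checkpoint kinase Bub1 by 1.58 and the checkpoint protein gene Mad2l1 by 0.76.

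Motors and proteins of the spindle were called in 6 of 6 members tested. The brightness filter took the mean of all 15 livers, which high day 1 values raise. Kif23 and Kif11 passed it at 5.51 and 5.71, with day 7 means of 4.77 and 5.06, under the lowest mean tested of 5.43. Cenpe was too dim to be tested, with means of 5.36, 4.64 and 4.29 on days 1, 3 and 7. At a mean log2 signal of 6 or more, 21 of 22 mitotic genes were called higher. That cutoff used the same mean of 15 livers, so it does not remove the part of day 1 in the filter. Hmmr passed it at 6.03, with means of 5.97 and 5.02 on days 3 and 7. Kif20a, a kinesin of the late spindle, had day 1 values between 7.99 and 8.46, day 3 values between 7.01 and 7.60 and day 7 values between 4.77 and 7.20. The difference was 1.61 (SE 0.27, limma adjusted p = 0.00479). Kif11, the motor that pushes spindle poles apart, differed by 1.14 (SE 0.12, limma adjusted p = 0.000642). A dimmer probe set of Kif11 was also called but differed by 0.62, and its groups overlapped. Hmmr, a spindle-associated protein, differed by 1.62, and by 1.18 at a dimmer probe set. Among genes of the chromosomes, Top2a, the topoisomerase that untangles DNA, had 8.10, 8.05, 8.42, 8.03 and 7.57 on day 1, 6.54, 7.43, 6.41, 6.63 and 7.21 on day 3, and 5.96, 6.84, 5.87, 5.34 and 6.94 on day 7. Its difference was 1.52 (SE 0.25, limma adjusted p = 0.0039), although the lowest day 1 liver stood close above the highest day 3 liver. A dimmer probe set of Top2a was also called, with a difference of 0.99. For cytokinesis, Ect2, which activates the small GTPase of the cleavage furrow, differed by 1.68 and Prc1, a bundler of midzone microtubules, by 1.44.

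**Figure D3:**
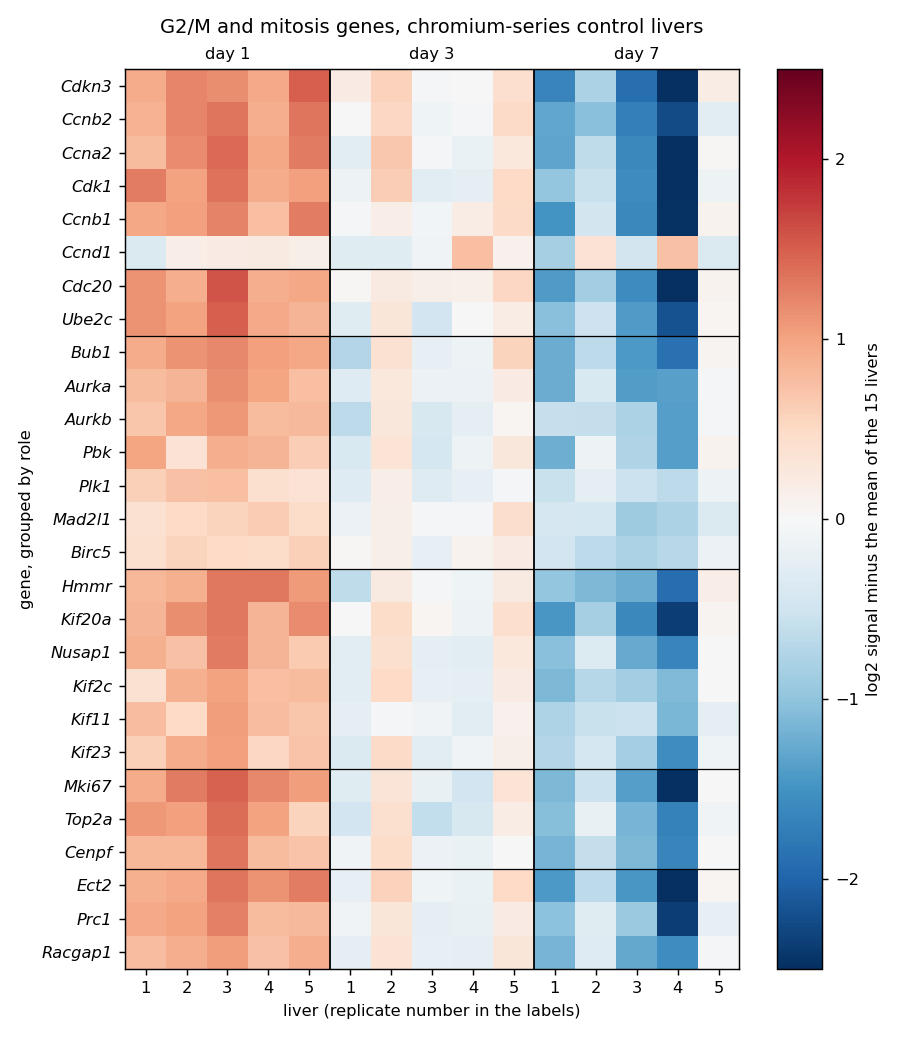
Log2 signal of the 27 tested G2/M genes (rows, grouped by role with Ccnd1 among the cyclins) in each of the 15 chromium-series control livers (columns), minus the mean of the 15. Values beyond the scale are drawn at its end. Day 1 livers stand above the mean throughout except in Ccnd1, and day 7 liver 4 is lowest and liver 5 highest of its day in most genes.

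Some mitotic genes outside the list were called as well. How many such genes were tested and not called was not counted. Kif20b (1.63), a kinesin of cytokinesis, was among the 12 largest higher calls. Chosen after their values were seen were Spc25 (1.38), Spc24 (1.16) and Nuf2 (1.08) of the kinetochore, Aspm (1.20) of the spindle pole, and Tacc3 (1.20). Smc2 (0.81), Smc4 (0.90) and Ncaph (0.75), all of condensin, and Lmnb1 (0.56), which encodes lamin B1, were called higher as well and were chosen in the same way.

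S phase genes followed with smaller differences. Of the 34 genes of the DNA replication list, 30 had a probe set and 23 were tested, with a median of 0.22. Of the 23, 6 were called higher and 0 lower, against 1.13% and 0.393% of all probe sets. Tk1, thymidine kinase, had 8.38, 8.52, 8.59, 8.36 and 8.41 on day 1, 7.78, 8.04, 7.73, 7.73 and 7.81 on day 3, and 7.50, 7.90, 7.39, 7.14 and 7.85 on day 7. No later liver reached the lowest day 1 liver, and the difference was 0.76 (SE 0.11, limma adjusted p = 0.00136). Rrm1, the large subunit of ribonucleotide reductase, differed by 0.61, with a day 1 range of 7.79 to 8.20 against 6.80 to 7.80 later, so that 1 day 3 liver lay within the day 1 range. Lig1, DNA ligase I, differed by 0.46, Mcm7 of the replicative helicase by 0.45, Rfc4 of the clamp loader by 0.44 and Dut, which removes dUTP, by 0.40.

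The means of the mitotic genes fell from day 1 to day 3 and from day 3 to day 7. This order was seen in 27 of the 27 tested members. They include Ccnd1, whose groups overlapped, and all are read from the same 15 livers. The share of all probe sets in this order was not counted. The average of the 27 was 7.64, 7.74, 8.0, 7.69 and 7.72 in day 1 livers. It was 6.61, 7.19, 6.67, 6.75 and 7.13 in day 3 livers, and 5.79, 6.33, 5.67, 5.10 and 6.81 in day 7 livers. Day 1 livers were close together, while day 7 livers had the widest range and overlapped those of day 3. Day 1 minus day 7 gave 287 calls (1.85%), 219 of them higher (1.41%), and 26 mitotic genes were called with a median of 1.84. Without day 7 liver 4 there were 182 calls. Day 1 minus day 3 gave 8 calls (0.0515%), all higher on day 1, and the median of the mitotic genes was 0.92. These 2 comparisons share the day 1 livers.

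The 8 calls of day 1 against day 3 were probe sets of Plk1, Kif11, Kif18b, Top2a, Cdca2, Tubb5 and Ptpa and 1 without a gene name. For Top2a, Cdca2 and Tubb5 the called probe set was not the brightest of the gene. This count was not stable: leaving out 1 liver gave between 0 and 66, with 66 without day 1 liver 5, 38 without day 7 liver 5, 28 without day 7 liver 4, 3 without day 3 liver 5, 1 without day 1 liver 4, and 0 without any of day 1 livers 1, 2 and 3, day 3 livers 1, 3 and 4, or day 7 livers 1, 2 and 3. Day 7 minus day 3 gave 0 calls (0.0%) in limma, with 1491 probe sets (9.61%) at an unadjusted p of 0.05 or less. Other settings called 1 with a trended variance, 7 with the beta-actin covariate, 9 with all 30 control arrays in the fit and 46 with array weights, and of these 0, 0, 3 and 3 were mitotic genes. The mitotic genes had a median of -0.91 for day 7 minus day 3, and 26 of the 27 had an unadjusted p of 0.05 or less in that direction, against 5.7% of all probe sets. The smallest adjusted p of that comparison was 0.0758, shared by Birc5 (-0.61), Mad2l1 (-0.66) and Ccnb2 (-1.48) among others. Without day 7 liver 5, 40 probe sets were called, 15 of them in the mitotic list, without day 7 liver 3 there were 4, without day 1 liver 5 there were 3 and without day 1 liver 2 there were 2.

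Markers of stellate cells and fibroblasts, the collagen-making cells of the liver, were lower on average on day 7 than on day 3. Of the 12 tested, 10 had an unadjusted p of 0.05 or less on the lower side for day 7 minus day 3 and 0 on the higher side, with 5.7% and 3.9% of all probe sets on these sides. The median of the 12 was -0.56, with -0.73 for Col3a1 and -0.81 for Col1a2, both genes of collagen chains, and none was called. The mean of the 12 ran from 7.52 to 7.75 in day 1 livers, 7.72 to 8.50 in day 3 livers and 7.24 to 7.89 in day 7 livers, and the ranges of all days overlapped. Their part in the step of the mitotic genes between days 3 and 7 was not tested.

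Markers of the liver endothelium were lower on day 1 in part. Of 13 genes in that list, 10 had a probe set, 9 were tested and 3 were called lower (0.393% of all probe sets were), and in these 3 all day 1 livers lay below all later livers, as 0.219% of all probe sets did. Kdr, the VEGF receptor of endothelial cells, had 9.86, 9.86, 9.90, 10.09 and 9.92 on day 1, 10.20, 10.12, 10.10, 10.14 and 10.23 on day 3, and 10.28, 10.24, 10.18, 10.28 and 10.23 on day 7. The groups were separate by a narrow margin and the difference was small, -0.27 (SE 0.05, limma adjusted p = 0.00479). Tek, the receptor for angiopoietins, differed by -0.32 (SE 0.06, limma adjusted p = 0.00841), with 8.0 to 8.17 on day 1 and 8.18 to 8.63 later.

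Fcgr2b, the Fc receptor of the liver sinusoid, differed by -0.34 (SE 0.06, limma adjusted p = 0.0115), with 9.89 to 10.13 on day 1 and 10.17 to 10.57 later. The other tested members did not pass the test, among them Stab2 (-0.02) and Lyve1 (-0.01), both receptors of the sinusoid, and Pecam1 (-0.13). The mean of the 9 tested members was 8.23 to 8.35 on day 1, 8.39 to 8.52 on day 3 and 8.39 to 8.52 on day 7. Cyyr1 (-0.40), Rhoj (-0.27) and Adgrl4 (-0.28) were also called lower and were chosen after their values were seen. None of Kdr, Tek and Fcgr2b was called with the beta-actin covariate, where their differences were -0.21, -0.26 and -0.29, or with all 30 control arrays of both series in the fit.

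Among the immediate early genes, which respond to signals within minutes, 1 of 21 tested members was called, on the lower side (0.393% of all probe sets were). Fos, a subunit of the transcription factor AP-1, had 4.29, 4.80, 4.42, 4.81 and 4.95 on day 1, 6.30, 5.45, 6.42, 5.17 and 6.65 on day 3, and 5.73, 6.84, 6.86, 5.87 and 6.74 on day 7. Every day 1 liver was below every later liver, and the difference of -1.55 had an SE of 0.25 and a limma adjusted p of 0.00404. The day 1 values lay below 5.43, the lowest mean signal among the probe sets tested, so no fold is given for Fos. Of the 21 members, 4 had an unadjusted p of 0.05 or less on the lower side and 0 on the higher side, with 7.02% of all probe sets on the lower side. The medians of the list were -0.03 for this comparison, -0.22 for day 1 minus day 7 and 0.40 for day 7 minus day 3. For the last, 7 of the 21 had an unadjusted p of 0.05 or less on the higher side. Of all probe sets, 3.9% did. Fos was not called with all 30 control arrays of both series in the fit.

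Several metabolic genes of the hepatocyte were higher on day 1. None of those named in this paragraph and the next was called with the beta-actin covariate. In the list of NRF2 targets and glutathione transferases, 3 of 29 tested members were called higher and 0 lower, against 1.13% and 0.393% of all probe sets. Aldh1a1, an aldehyde dehydrogenase that makes retinoic acid, had 11.36, 11.07, 10.91, 10.75 and 10.96 on day 1, 9.77, 8.65, 10.29, 10.22 and 9.69 on day 3, and 10.11, 9.06, 8.73, 8.79 and 9.96 on day 7. The lowest day 1 liver stood above the highest later liver, and the difference was 1.48 (SE 0.27, limma adjusted p = 0.00794). Gsta3, a glutathione transferase, differed by 1.36 (limma adjusted p = 0.0346), although day 7 liver 5 (8.24) lay within the day 1 range, and Ces2c, a carboxylesterase, by 0.55.

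In the list of fatty acid oxidation, 2 of 28 tested members were called higher and 0 lower, against the same 1.13% and 0.393% of all. Ech1, an enzyme that handles double bonds during fatty acid breakdown, had 9.55, 9.46, 9.58, 9.58 and 9.55 on day 1, 9.18, 8.73, 9.20, 9.27 and 8.97 on day 3, and 9.27, 8.92, 8.73, 8.89 and 8.87 on day 7. Day 1 livers differed among themselves by little and lay above all later livers, with a difference of 0.54 (SE 0.09, limma adjusted p = 0.00457). Hadha, of the mitochondrial trifunctional protein, differed by 0.27. The calls of Aldh1a1, Ces2c and Ech1 were lost when the exposed chromium arrays were in the fit, with the same differences. Akr1d1, which reduces bile acid precursors, was the only call of 23 in the bile acid list, with a difference of 0.60 (SE 0.14, limma adjusted p = 0.0364).

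**Figure D4:**
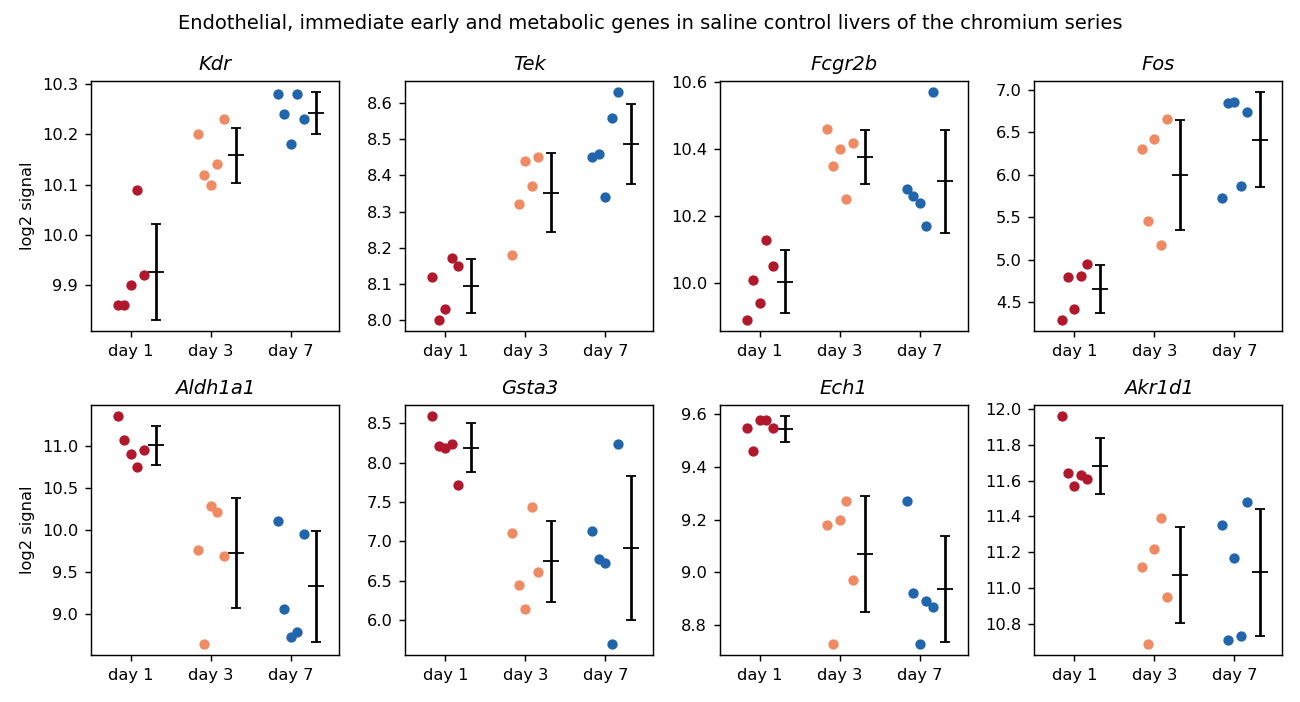
Log2 signal of 3 endothelial genes, Fos and 4 metabolic genes in each chromium-series control liver (points), with the mean and SD of the 5 livers of a day (black marks). Kdr, Tek, Fcgr2b and Fos are lower in all day 1 livers than in all later livers, and Aldh1a1, Ech1 and Akr1d1 are higher; Gsta3 overlaps in 1 day 7 liver.

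Other called genes had hepatic or secreted products, and of these Serpina7 and Mlc1 were chosen after their values were seen. Gdf15, a cytokine of cell stress, had 6.30 to 8.08 on day 1, 5.68 to 6.57 on day 3 and 5.82 to 6.92 on day 7, with a difference of 1.01 (SE 0.24, limma adjusted p = 0.046). Serpina7, which encodes the thyroxine-binding globulin, differed by 1.32 (limma adjusted p = 0.04), and its groups overlapped, since a day 3 liver reached 7.64 and the lowest day 1 liver was at 7.26. Mlc1, a membrane protein gene, had a difference of -1.36 (limma adjusted p = 0.0133), and Obp3, an abundant male urinary protein gene of rat liver, had -0.58 (limma adjusted p = 0.0262). Gdf15 lost its call when any of several single livers was left out, among them day 1 liver 2, where the difference was 0.80. The calls of Gsta3, Hadha and Akr1d1 were also lost when day 1 liver 1 was left out, with differences of 1.26, 0.22 and 0.53, and that of Obp3 without day 1 liver 1, 2 or 3.

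Of the 32 pathway lists, 21 had 0 members called among the 464 tested, and 1.53% of all probe sets tested were called. With so low a share, 0 calls in a list is not a result about its members. The 21 lists included the core of the circadian clock, in which 0 of 13 tested members was called and the smallest limma adjusted p was 0.277. Of the 13, 2 were lower on day 1 at an unadjusted p of 0.05 or less, as were 7.02% of all probe sets. Also among the 21 lists were acute phase proteins (0 of 18), interferon-stimulated genes (0 of 27) and glucocorticoid-induced genes (0 of 19). So were cytochrome P450 genes (0 of 27) and cholesterol synthesis (0 of 20). Amino acid catabolism with the urea cycle (0 of 44) and oxidative phosphorylation (0 of 47) belonged there too. The medians of these named lists lay between -0.11 for the interferon list and 0.09 for cholesterol synthesis. For other pairs of days, Per2, a repressor of the clock, was called for day 1 minus day 7 (-0.71, limma adjusted p = 0.0344). For day 7 minus day 3 none was called, and 6 of the 13 had an unadjusted p of 0.05 or less, 5 on the higher side and 1, Nr1d2, on the lower (9.61% of all probe sets on either side). Of the 15 lists of cell type markers, 13 had 0 members called. Among them were Kupffer cells (0 of 11, median -0.11) and stellate cells (0 of 12, median 0.05). The neutrophil, B and plasma cell, and pancreatic acinar lists had only 1 tested member each. With 1.53% of all probe sets called, these counts do not show that the cell types were unchanged.

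The cadmium-series controls are another 15 saline livers of the same design on separate arrays, and the same comparison was made in them. They had 172 calls (1.11%), 146 higher on day 1 (0.941%) and 26 lower (0.168%). In the mitotic list 26 of 27 members were called higher there as well, with a median of 1.16, against 1.44 in the chromium-series controls. Shared calls numbered 105, all higher on day 1 in both series, which is 44.3% of the chromium-series calls and 61.0% of the cadmium-series calls. Of the 61 lower calls of the chromium-series controls, 0 was called lower in the cadmium-series controls. A negative difference there was found for 53 of the 61, against 57.2% of all probe sets tested. Of the 176 higher calls, 166 had a positive difference there, against 42.8% of all probe sets tested.

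The average of the mitotic genes was 7.71, 7.36, 8.13, 7.80 and 7.65 in cadmium-series day 1 livers, 6.14 to 6.80 on day 3 and 6.34 to 6.80 on day 7. In both series day 1 stood apart from the later days. The median of day 7 minus day 3 over the mitotic genes was -0.91 in the chromium series, where 0 of them was called, and 0.02 in the cadmium series. The test of that difference called 0 probe sets, with 24 of the 27 mitotic genes at an unadjusted p of 0.05 or less on the lower side (2.7% of all probe sets were) and a smallest adjusted p of 0.558.

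**Figure D5:**
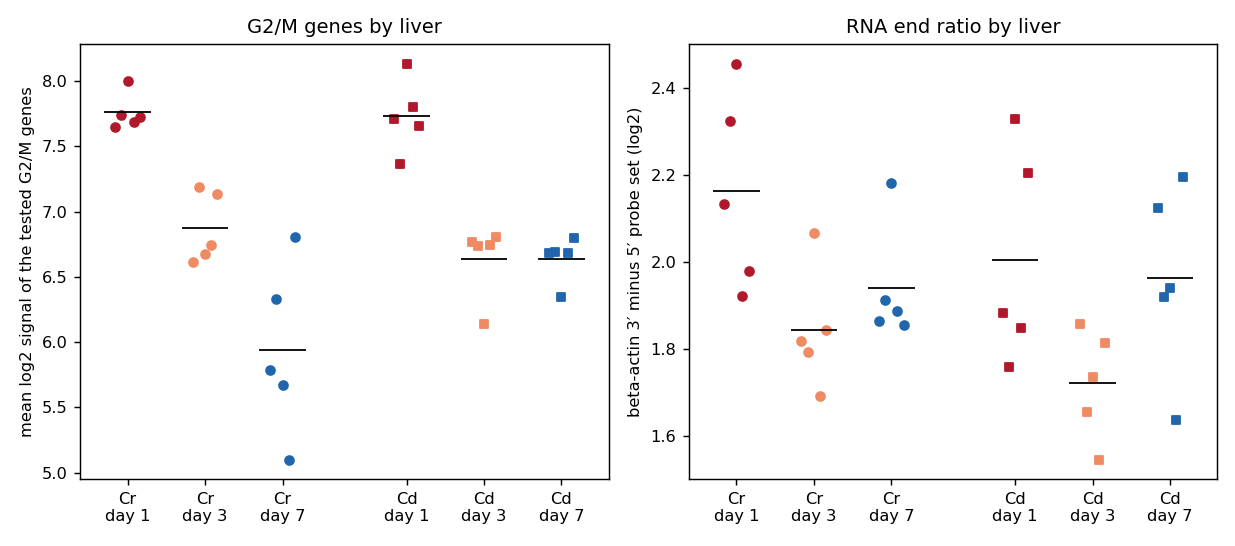
Left, mean log2 signal of the 27 tested G2/M genes per liver (points, with the group mean as a line) in chromium-series (circles) and cadmium-series (squares) controls. Right, 3′ minus 5′ log2 signal of beta-actin in the same livers. Mitotic signal is highest on day 1 in both series, and the beta-actin measure overlaps between days.

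For the difference between series in day 1 minus the later days, limma called 0 probe sets, with 1098 (7.07%) at an unadjusted p of 0.05 or less, a smallest adjusted p of 0.111, and 0 of the 27 mitotic genes at an unadjusted p of 0.05 or less. Without cadmium-series day 7 liver 3 there were 16 calls, without chromium-series day 3 liver 5 there were 4, and without cadmium-series day 1 liver 2 or liver 5 there were 2. The chromium-series differences that were far from those of the cadmium series did not pass this test. Fos had -1.55 in the chromium series and -0.04 in the cadmium series, a difference of -1.51 (limma adjusted p = 0.696). Gdf15 had 1.01 and -0.07 (limma adjusted p = 0.621), and Aldh1a1 had 1.48 and 0.70 (limma adjusted p = 0.726). Ech1, Hadha, Ces2c, Akr1d1 and Gsta3 had 0.14, 0.03, 0.16, 0.22 and 0.385 in the cadmium series and were not called there. Hes1, a repressor downstream of Notch, had 0.71 in the chromium series and -0.69 in the cadmium series, with the smallest adjusted p of 0.111. Kdr, Tek and Fcgr2b, called lower in the chromium series, had -0.39, -0.52 and -0.50 in the cadmium series, where they were not called and the endothelial means of day 1 livers spanned 7.53 to 8.43. The difference between series had a limma adjusted p of 0.935, 0.862 and 0.935 for these genes.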

How the data were processed

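The authors processed all 59 arrays by robust multi-array averaging in Partek Genomic Suite and deposited log2 signals, which were used as given. That step scales every array to the same distribution, so a change in total RNA is not seen. Of 31099 probe sets, 57 control probe sets were left out, and the brighter 50% of the rest by mean over the 15 arrays was tested. Gene names come from the array annotation (20826 probe sets with 1 symbol, 436 with several, 9780 with none). Fits used limma 3.58.1 in R 4.3.3 with 3 day groups, and tables used Python 3.11.15. The number of arrays limits precision.

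The 47 gene lists and the members were chosen with earlier results of these data known. The rule for naming genes took the 12 largest non-overlapping calls in each direction, up to 4 members of each list with the largest differences, and the clock core. The text names further members of the lists, and genes outside them, that were chosen after their values were seen. The controls are separate livers per the labels, and replicate numbers were not used as pairs. Across 15 pairs of livers with the same number, correlations of deviations lay between -0.045 and 0.200. Alternatives covered filters, normalization, variance models, the arrays in the fit, a replicate block and each liver left out.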

Additional observations from a re-analysis of the deposited data

Results flagged for a closer look

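For 28 genes the values of each day were checked for a liver apart from the other 4, and 8 of the 84 groups had such a liver, while chance gives about 1 in 20. Among these, Tk1 had 8.04 in day 3 liver 2, with the next at 7.81. Ccnd1 had 8.28 in day 1 liver 1, with the next at 8.78. Kdr had 10.09 in day 1 liver 4, with the next at 9.92, and Fcgr2b had 10.57 in day 7 liver 5, with the next at 10.28. Serpina7 had 7.50 in day 7 liver 1, with the next at 6.21, and Mlc1 had 9.85 in day 3 liver 2, with the next at 9.22. Obp3 had 13.21 in day 7 liver 5, with the next at 13.53, and Akr1d1 had 11.96 in day 1 liver 1, with the next at 11.64. The liver apart was not always of the same number. Its gap over the range of the group ran from 0.723 to 0.839, against the limit of 0.71 for 5 samples.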

How the results depend on the processing

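With the beta-actin covariate, chosen after seeing the data, calls for day 1 minus the later days were 44 (237 without it), 21 with a fold of 1.8 or more (68), 154 for day 1 minus day 7 (287), 0 for day 1 minus day 3 (8), 7 for day 7 minus day 3 (0) and 8 in the mitotic list (26). With all 30 chromium arrays in the fit they were 146 for day 1 minus the later days, 174 for day 1 minus day 7 and 0 for day 1 minus day 3. Day 1 minus day 3 gave 23 with no filter, 0 at a mean log2 signal of 6 or more, 28 with a filter on the lowest signal in a day group, 1 with a plain ANOVA contrast and 44 with all 30 control arrays. Day 7 minus day 3 gave 1 with a trended variance, 46 with array weights and 9 with all 30 control arrays. The causes were not tested.

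With 1 liver left out, the ranges were 141 to 438 for day 1 minus the later days, 55 to 72 with the fold, 0 to 66 for day 1 minus day 3, 182 to 385 for day 1 minus day 7, 0 to 40 for day 7 minus day 3, 122 to 222 in cadmium-series controls, 0 to 16 for the difference between series and 25 to 26 in the mitotic list. With the replicate number as a block, the counts were 304 for day 1 minus the later days, 58 for day 1 minus day 3, 331 for day 1 minus day 7, 12 for day 7 minus day 3 and 1 for the difference between series. The numbers share no stated litter or day, 9 of 15 same-numbered pairs correlated above 0.1, and 8 of 15 arrays were closest to their own number.

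Of the 113 named genes, 39 were called, and 0 of these reversed direction in any setting. Changes of sign were not recorded for the genes that were not called. Of 39 called ones, 13 lost the call without 1 liver, 35 with the beta-actin covariate (Ccnb2, Hmmr, Tk1 and Fos did not), and 16 kept it under every alternative other than the covariate.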

Other observations

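Some genes other than those of mitosis that shared the smallest adjusted p for the later days were chosen after their values were seen, and none was called. Igfbp7, a secreted binding protein of the vessel wall, had -0.48 for day 7 minus day 3, Sparc, a matricellular protein gene, had -0.43 and Fstl1, a secreted glycoprotein gene, -0.48, each with a limma adjusted p of 0.0758. Nr1d2, a repressor of the circadian clock, had -0.87 at the same adjusted p. Per2, of the same clock, averaged 8.07 ± 0.26 on day 1, 8.03 ± 0.35 on day 3 and 8.78 ± 0.24 on day 7 (SD, n = 5 each).

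Between the series, Nr0b2, a repressor of bile acid synthesis, had 0.93 for day 1 minus the later days in chromium-series controls and -1.31 in cadmium-series controls, with a limma adjusted p of 0.181 for the difference. Orm1, an acute phase protein gene, had -0.46 and 0.54 (limma adjusted p = 0.138).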
